A study of Homo sapiens with 2 samples.

Results

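The unnamed transcript clusters of chromosome 15 were compared between OAW42-R, an ovarian carcinoma cell line resistant to cisplatin, and OAW42, the cisplatin-sensitive serous ovarian cancer line from which it was selected with stepwise doses of the drug. Both lines were grown without drug, in the same insulin-supplemented medium, and biotin-labelled cDNA made from their total RNA was hybridized to Affymetrix HTA arrays. A transcript cluster is a group of probes that the array's design assigns to a single transcribed region. Its signal is given here as a log2 value, so that a difference of 1 is 2-fold. Members were chosen by an identifier that begins with TC15 and by the lack of a gene symbol in the platform annotation. This gave 1950 members of 2781 chromosome 15 clusters, of 67524 clusters in all. Members that shared the same value on both arrays, to 2 decimals, with at least 4 other members were set apart as repeated copies. These were 175 clusters, and 1775 other members remained. Each line was measured on 1 array, so there were no replicates, no difference below carries an error or a test, and every difference compares these arrays and not the lines in general. OAW42-R was established by selection, and other changes acquired in that time cannot be told apart from resistance.

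Chromosome 15 is rich in duplicated sequence. Its proximal long arm holds large blocks of near-identical sequence, many of them with copies of the golgin genes GOLGA6 and GOLGA8 and of HERC2, and recombination between such blocks causes the deletions of Prader-Willi and Angelman syndromes. Between the blocks lies an imprinted region in which a gene is read from the copy inherited from a given parent, with UBE3A, a ubiquitin ligase, among its genes, and with long runs of the small nucleolar RNA genes SNORD115 and SNORD116. Further golgin repeats lie more distally, and the chromosome ends in gene families that are shared by the ends of other chromosomes, such as olfactory receptors and the DDX11L and WASH pseudogenes. Probes within near-identical copies detect RNA from any of them, so such a signal cannot be assigned to a given copy. The repeated copies counted here were defined by equal values only, and whether they hold near-identical sequence was not examined.

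An annotated example shows what equal values can look like. The cluster TC15001043.hg.1, annotated with the microRNA genes MIR4509-1 and MIR4509-2, gave 3.65 in OAW42-R against 3.49 in OAW42. Members TC15000135.hg.1 and TC15001097.hg.1, each beside a cluster annotated GOLGA8F and GOLGA8G, had the same pair of values, as had an unnamed cluster of chromosome 10. RefSeq, assembly GRCh38.p14, lists 3 MIR4509 genes on chromosome 15. Their hairpins of 94 bases were identical, and so was the mature sequence of 22 bases, shown with its seed (bases 2 to 8) in capitals because it is the annotated sequence that these equal values accompany.
hsa-miR-4509: aCUAAAGGauauagaagguuuu
Whether the unnamed members with these values hold this sequence was not determined. All 4 clusters had signals far below the array medians of 6.34 in OAW42-R and 6.30 in OAW42. An equal pair alone does not show a relation, and relations of sequence between members were not examined. In all, 30 members, TC15000135.hg.1 and TC15001097.hg.1 among them, shared their pair with an annotated chromosome 15 cluster. None of the 20 repeated pairs did so.

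Most members were close to equal in both lines. Of the 1775 other members, 1711 (96.4%) lay within 1.5-fold, beside 97.5% of all clusters. The central 95% of differences, OAW42-R minus OAW42, ran from -0.45 to 0.61 for the other members and from -0.38 to 0.51 for all clusters. The median difference of the other members was 0.04, against 0.02 for all clusters and 0.03 for the 831 annotated clusters of the same chromosome. The higher side of 2-fold held 10 of the other members (0.563%) and 43 of the 175 repeated copies, beside 0.486% of all clusters. The lower side held 2 of the other members (0.113%) and none of the repeated copies, beside 0.176% of all clusters. The share of other members was thus near the background in both directions. With the copies included, 2.72% of members were higher, compared with 0.592% of unnamed clusters on chromosome 3, 0.342% on chromosome 4 and 0% on chromosome 22. On the lower side the shares were 0.103% of members and 0.395%, 0.391% and 0.437% on those chromosomes. By the same rule chromosomes 3 and 4 held 0 repeated copies and chromosome 22 held 5. The 43 copies held only 5 distinct pairs of values, which the plot of both arrays shows as 5 points above the upper dashed line.

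**Figure D1:**
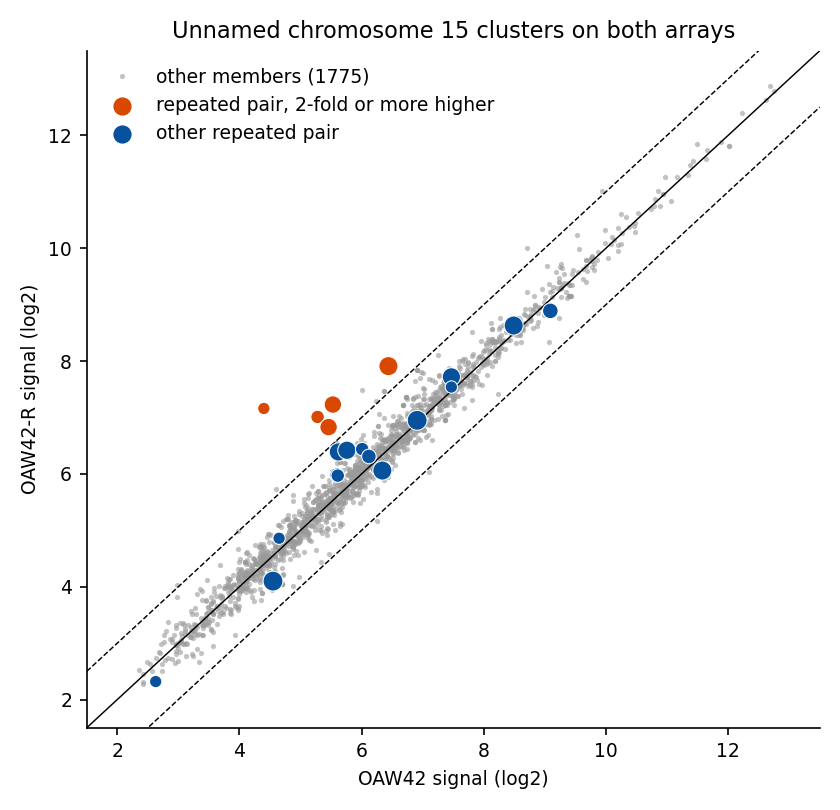
Log2 signal of each unnamed chromosome 15 cluster in OAW42 (horizontal axis) and OAW42-R (vertical axis), 1 array each. Grey points are the 1775 other members, large points are the 20 repeated pairs with an area set by their number of copies, the solid line marks equality and the dashed lines mark 2-fold; 5 repeated pairs lie above the upper dashed line and none below the lower.

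Members were dimmer than annotated clusters. Their median signals were 6.06 in OAW42-R and 5.89 in OAW42, against 7.36 and 7.33 for the annotated clusters of the chromosome. Among the other members, 763 (43.0%) reached the median of all clusters on at least the array where they were brighter, and 276 (15.5%) reached the 75th percentile. Of the annotated ones 73.5% and 40.3% did so. The median itself is no limit of detection, and no detection call was used. Of the 11 epithelial and ovarian carcinoma markers measured, all passed the median and 9 passed the 75th percentile, whereas of the leukocyte markers 2 of 3 passed the median and 0 the 75th percentile, of the endothelial ones 2 of 3 and 0, and of the fibroblast ones 2 of 4 and 1.

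The running number in the identifiers follows the chromosome. Up to TC15001004.hg.1, the cluster of the pseudogene WASH3P, annotated clusters stood in ascending RefSeq order in 97.1% of consecutive pairs, and 248 of the 250 with a known strand were on the plus strand. From there to TC15002056.hg.1 the order ascended again from the start of the chromosome, in 97.3% of pairs, and 248 of 249 were on the minus strand. The next 694 clusters carried no symbol at all, and a last block of 66 clusters was mixed in order and strand. These are called the first block, the second block, the block without symbols and the mixed block below. Members made up 564, 684, 694 and 8 clusters of them, and the copies lay in the first (72) and second (103). A neighbour named below is a neighbour by identifier number within a block, which gives no name to the member itself.

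The copies differed in direction and size by pair. Of the 20 repeated pairs, 16 were higher in OAW42-R and 4 were lower, with differences from -0.45 to 2.76. These values, being the same that defined the copies, are a description. In 13 pairs the difference was within 1.5-fold, in 2 it lay between 1.5-fold and 2-fold, and 5 passed 2-fold. Pairs were carried by 5 to 13 clusters, 17 of the 20 occurred in both the first and the second block, and 13 were found in no other cluster of the whole array. Just outside the definition were 9 pairs with 4 copies each, whose differences ran from -0.64 to 0.64.

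**Figure D2:**
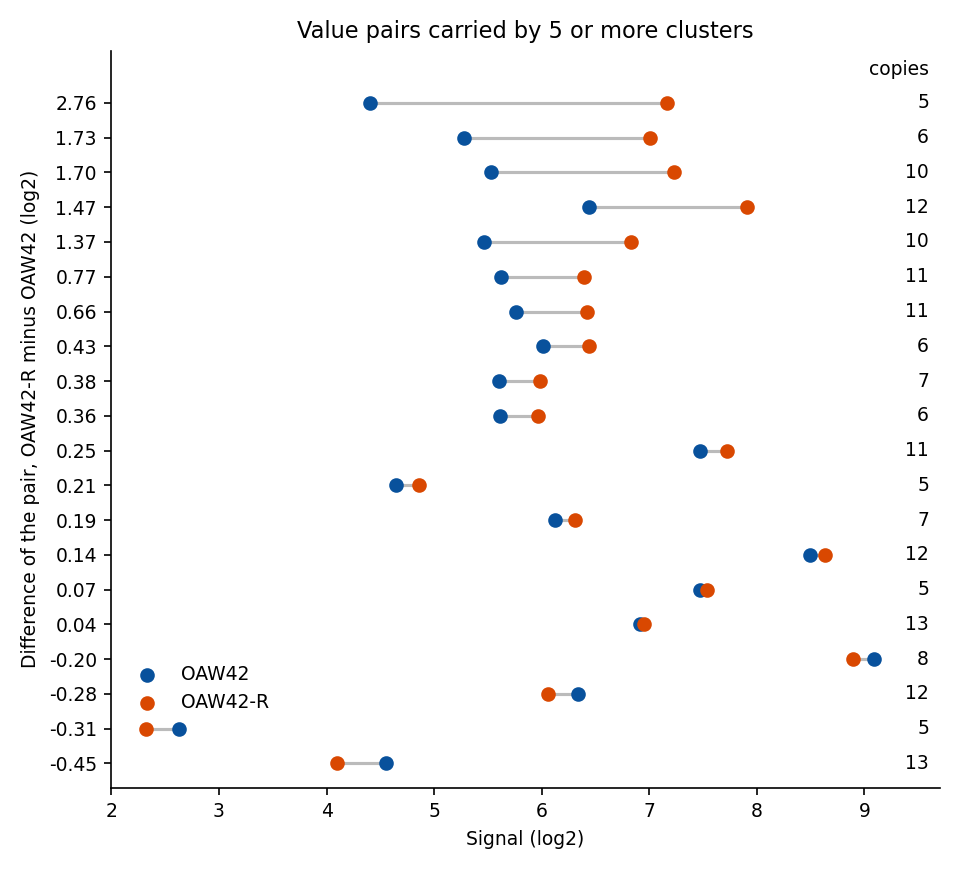
Log2 signal in OAW42 (blue) and OAW42-R (orange) of each value pair carried by 5 or more members, 1 array per line, ordered by the difference printed on the vertical axis, with the number of copies at the right. The 5 uppermost pairs differ by 1.37 to 2.76 and the 4 lowest are lower in OAW42-R, by -0.20 to -0.45.

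The pair with the largest difference read 7.16 in OAW42-R against 4.40 in OAW42, which is 2.76 or 6.77-fold, in 5 clusters. These values stood at percentiles 65 and 16.9 of all clusters on their arrays, so the fold sets a mid-range signal against a dim one. TC15000159.hg.1 lay between GOLGA8J and the pseudogene ULK4P3, TC15001139.hg.1 between CHRFAM7A, a hybrid gene that includes part of the nicotinic receptor gene CHRNA7, and GOLGA8R, and TC15001173.hg.1 directly before GOLGA8O. TC15000185.hg.1 followed GOLGA8Q and preceded FAN1, a DNA repair nuclease. The annotated golgin clusters beside them were near equal: GOLGA8J differed by 0.03, GOLGA8R by 0.09, GOLGA8O by 0.06 and GOLGA8Q by 0.11. ULK4P3, directly after TC15000159.hg.1, had a difference of -0.40. The fifth copy, TC15000960.hg.1, stood far from the rest of the group, between MEF2A and ASB7, and more than 10 numbers from any other repeated copy. Its preceding members TC15000958.hg.1 (7.47 and 6.36) and TC15000959.hg.1 (8.11 and 7.25) were also higher in OAW42-R, by 1.11 and 0.86. The next one, TC15000961.hg.1, read 6.08 on both arrays.

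A set of 12 copies of a further pair, 7.91 in OAW42-R against 6.44 in OAW42, lay by identifier number among genes of the proximal long arm. Its difference was 1.47, or 2.77-fold, and both values were above the median of all clusters. Of the copies, 4 lay in the first block and 8 in the second, from TC15000025.hg.1, beside a golgin cluster and TUBGCP5, to TC15001155.hg.1, before MTMR10. Directly beside WHAMMP2, GOLGA6L6 and WHAMMP3 stood 1 copy each, and the rest lay in the intervals from RPL41P2 to HERC2P9, RNU6-18 to GOLGA8N, HERC2P2 to GOLGA6L2, HERC2 to GOLGA8M and TJP1 to RNU6-17. The imprinted genes MAGEL2 and NDN followed within 6 numbers of the copy TC15001064.hg.1.

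These copies came with recurring companions in a recurring order. Within 5 identifier numbers of the copy, 10 of 12 had a copy of the pair 8.63 and 8.49, 8 had the pair 6.42 and 5.76, 8 had the pair 6.39 and 5.62, and 7 had the pair 6.06 and 6.34. In the second block the order read 7.91, 6.42, 8.63, 6.06, 6.39 by the OAW42-R values, complete in TC15001114.hg.1 to TC15001118.hg.1 and in TC15001128.hg.1 to TC15001132.hg.1, and with another cluster inserted in TC15001052.hg.1 to TC15001057.hg.1. In the first block it ran the other way round, in TC15000145.hg.1 to TC15000149.hg.1. The differences of these companions were unlike that of the 7.91 cluster: 0.14, 0.66, 0.77 and -0.28. Of 127 clusters within 6 numbers of the 12 copies, other than the copies themselves, 1 was at least 2-fold higher, and the 32 annotated ones differed by -0.21 to 0.40.

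**Figure D3:**
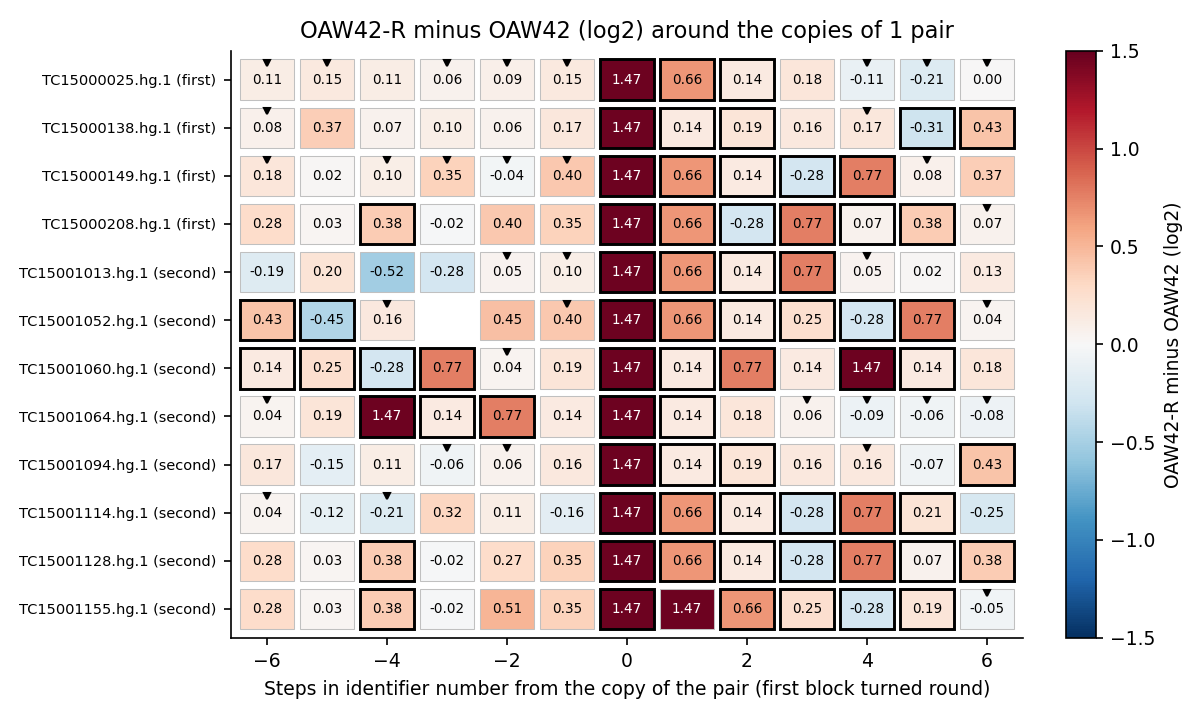
Difference between OAW42-R and OAW42 (log2, colour and printed value, 1 array per line) of every cluster within 6 identifier numbers of the 12 copies of the pair 7.91 and 6.44, each row a copy, with rows of the first block turned round. Thick outlines mark repeated copies, triangles mark annotated clusters and an empty place marks a number not analysed here; the column of 1.47 is followed by the same lighter companions in most rows.

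The exception among those neighbours was TC15001156.hg.1, with 7.83 in OAW42-R against 6.36 in OAW42. Its difference of 1.47 equalled that of the repeated copy TC15001155.hg.1 directly before it, with both values slightly lower. It counted as another member because its values were its own, and it was among the 3 other members past 2-fold whose brighter array reached the 75th percentile.

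Longer runs of equal values linked distant stretches. Runs of at least 4 equal pairs with steps of at most 3 numbers, a search chosen after the values were seen and made without the stretch after TARS3 described below, gave 8 matches between the first and second block, all in reversed order, and 4 within a block, all in the same order. The longest matched TC15000207.hg.1 to TC15000219.hg.1, before GOLGA8N, with TC15001117.hg.1 to TC15001129.hg.1, after TJP1, at 12 clusters. Others joined the interval from LINC02249 to GOLGA8Q with those from TJP1 to RNU6-17 and from GOLGA8R to MTMR10. Beside the 7.91 copies, the pairs in these runs differed by various amounts. The pairs 6.39 and 5.62, 6.42 and 5.76 and 7.22 and 6.68 were higher in OAW42-R by 0.77, 0.66 and 0.54, while the pairs 9.29 and 9.26, 5.66 and 5.68 and 9.15 and 9.40 differed by 0.03, -0.02 and -0.25.

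A further set preceded the GOLGA8 clusters. The pairs 4.10 and 4.55, 6.44 and 6.01 and 2.32 and 2.63 stood in this order directly before GOLGA8CP, before the cluster annotated GOLGA8EP and GOLGA8DP, before GOLGA8S and before the first-block cluster annotated GOLGA8F and GOLGA8G. After GOLGA8DP in the second block they stood in reversed order. Their differences were -0.45, 0.43 and -0.31, so that clusters lying side by side pointed in opposite directions. The signal of 2.32 stood at percentile 0.0222 of its array, so the last of these differences compares signals near the floor. Over the chromosome, 24 of 33 clusters annotated with a golgin symbol had a repeated copy within 3 numbers. Of the 149 repeated copies outside the stretch after TARS3, 91 (61.1%) lay within 10 numbers of a golgin cluster, against 19.4% of the 1059 other members of those blocks. The golgin clusters themselves differed by -0.01 to 0.59, with a median of 0.16, and none passed 2-fold. The largest difference was that of GOLGA8A.

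Most of the more distal copies were near equal. The pair 6.95 and 6.91, in 13 clusters, and the pair 8.89 and 9.09, in 8, differed by 0.04 and -0.20, and all but TC15001585.hg.1, which carried the first of them, lay between TC15000768.hg.1 and TC15000826.hg.1 or between TC15001740.hg.1 and TC15001781.hg.1, among clusters annotated GOLGA6L4, GOLGA6L10, UBE2Q2P2 and CSPG4P5. The pair 5.97 and 5.61 stood next to 4.10 and 4.55 after PML, after LINGO1-AS1 and, in 2 successive copies, after RPP25, with a difference of 0.36. In all, 130 of the 175 copies had another copy at the number directly before or after, and 7 were more than 10 numbers from any other.

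**Figure D4:**
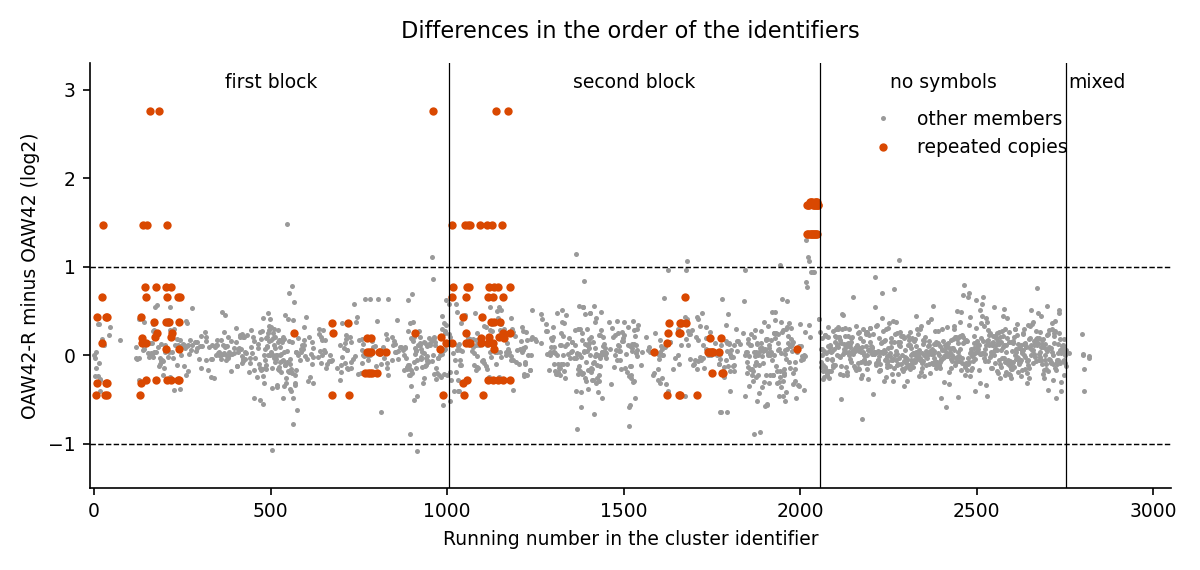
Difference between OAW42-R and OAW42 (log2, 1 array per line) of every member against the running number of its identifier, with repeated copies in orange, block borders as vertical lines and 2-fold as dashed lines. The copies cluster near the start of the first and second blocks and at the end of the second, where 29 members pass 2-fold together.

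The densest group of higher members closed the second block. Between TARS3, a threonyl-tRNA synthetase gene, and the cluster annotated with the olfactory receptor genes OR4F4 and OR4F17 lay 40 members, of which 29 were at least 2-fold higher in OAW42-R. In RefSeq order the last gene of the chromosome is DDX11L9, which annotates the last cluster of the block together with DDX11L1 and DDX11L5. Of the 40, 39 had a positive difference. From TC15002016.hg.1 to TC15002051.hg.1 all 36 members were higher, by 0.21 to 1.73 with a median of 1.37. These bounds were taken from the values, as the first and last members past 2-fold. The annotated clusters at either side were near equal. TARS3 read 6.88 in OAW42-R against 6.99 in OAW42 (-0.11), and the OR4F4 and OR4F17 cluster read 3.45 and 3.39 (0.06). The cluster with DDX11L9 differed by -0.05, and WASH3P, which ends the first block, read 9.36 on both arrays. TC15002014.hg.1, directly after TARS3, differed by -0.01 and TC15002015.hg.1, the next, by 0.26. TC15002052.hg.1 and TC15002053.hg.1, which carried equal values, differed by 0.41.

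Within this stretch 26 clusters were copies of 3 pairs. The first read 7.23 in OAW42-R against 5.53 in OAW42 (difference 1.70, 3.25-fold) in 10 clusters, the next 6.83 and 5.46 (1.37, 2.58-fold) in 10, and the last 7.01 and 5.28 (1.73, 3.32-fold) in 6. None of these pairs occurred elsewhere on the array. They alternated in a recurring order. The 7.23 cluster was followed directly by the 6.83 cluster in 8 of 10 cases, and the 6.83 cluster by the 7.01 cluster in 6 of 10. In OAW42 all 3 lay below the median of all clusters, 6.30, and in OAW42-R all were above that array's median, 6.34.

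The 10 other members of the stretch did not share those values, and all of them were higher too, by 0.21 to 1.30 with a median of 0.94. The stretch was bounded by its values, so this is a description. TC15002016.hg.1 was the brightest, with 10.00 in OAW42-R against 8.70 in OAW42, both above the 75th percentile of their array, which is 1.30 or 2.46-fold. TC15002021.hg.1 (7.47 and 6.36) and TC15002025.hg.1 (7.30 and 6.24) differed by 1.11 and 1.06. TC15002021.hg.1 had the same values as TC15000958.hg.1, which precedes TC15000959.hg.1 and the isolated copy TC15000960.hg.1. TC15002032.hg.1, TC15002035.hg.1 and TC15002038.hg.1 shared 7.84 and 6.90, a difference of 0.94. TC15002017.hg.1 and TC15002018.hg.1 differed by 0.83 and 0.77, and TC15002024.hg.1 and TC15002029.hg.1 by 0.34 and 0.21. By the rule for stretches, at least 3 members past 2-fold with at most 10 numbers between each and the next, the other members formed 1 stretch, the 3 from TC15002016.hg.1 to TC15002025.hg.1, with none in the lower direction. The repeated copies, taken apart, formed the 26 here and 1 more stretch, the 3 copies of the 7.91 pair from TC15001052.hg.1 to TC15001064.hg.1. Whether its clusters measure separate RNAs was not tested.

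**Figure D5:**
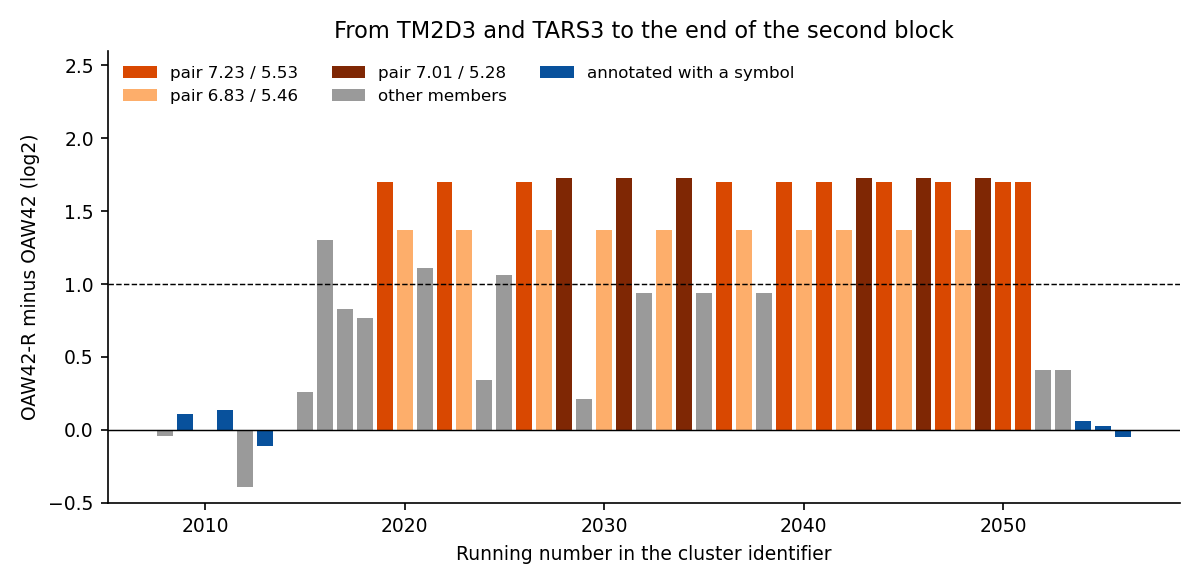
Difference between OAW42-R and OAW42 (log2, bars, 1 array per line) of each cluster from before TM2D3 to the end of the second block, against its identifier number, with the 3 repeated pairs in orange shades, other members in grey, annotated clusters in blue and 2-fold as a dashed line. From 2016 to 2051, the first and last members past 2-fold, every bar is above 0. The annotated clusters at either side lie between -0.11 and 0.14.

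Outside that stretch 7 of the other members were at least 2-fold higher and 2 lower. By the rule of a bright array, TC15002279.hg.1 in the block without symbols was the one to name beside TC15001156.hg.1. It read 11.01 in OAW42-R against 9.93 in OAW42, which is 1.08 or 2.11-fold. Of the 41 other members with a mean signal of 10 or more it was the only one past 1.5-fold. The remaining members were named after their values were seen. TC15000548.hg.1 (7.49 and 6.01, difference 1.48) and TC15000503.hg.1 (6.03 and 7.10, difference -1.07) lay in the same interval, between C2CD4A and TLN2, among 96 other members with a median difference of 0. TC15001366.hg.1 (5.74 and 4.60, difference 1.14) came after CYP19A1, the aromatase gene, and was below the median on both arrays. The adjacent TC15001367.hg.1 (7.41 and 8.24) went the other way, with a difference of -0.83. TC15001679.hg.1 (4.04 and 2.98), before NRG4, TC15001944.hg.1 (4.99 and 3.97), after SPATA8-AS1, and TC15000915.hg.1 (5.17 and 6.25), before HMGN1P38, differed by 1.06, 1.02 and -1.08, and were below the median on both arrays.

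The 2-fold threshold cut through close values. Just inside on the higher side was TC15001944.hg.1 at 1.02, and just outside were TC15001625.hg.1, TC15001677.hg.1 and TC15001844.hg.1, which shared 6.54 and 5.58 and differed by 0.96. On the lower side TC15000503.hg.1 at -1.07 was just inside, and TC15000896.hg.1 and TC15001868.hg.1 at -0.89 were just outside. Between 1.5-fold and 2-fold were 36 other members that were higher and 16 that were lower. Within 1.5-fold lay 96.4% of the other members, beside 97.5% of all clusters.

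The brightest members were near equal. TC15002586.hg.1 read 12.88 in OAW42-R against 12.69 in OAW42, TC15002610.hg.1 12.79 and 12.75, and TC15002609.hg.1 12.62 on both arrays. All 3 lie in the block without symbols, where no annotated neighbour exists. TC15000655.hg.1, between SENP8 and HEXA-AS1, read 12.40 and 12.23. TC15001309.hg.1 and TC15001310.hg.1, after SHF, were adjacent and shared 11.81 and 12.02. Their differences ran from -0.21 to 0.19.

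The differences spread less in the block without symbols than in the first and second blocks, and the mixed block held only 8 members. The values of the second block include the 14 other members between TARS3 and the OR4F4 and OR4F17 cluster. Of these, 3 were at least 2-fold higher, and the spread of the block was not computed without them. The median difference of other members was 0.03 in the first block, 0.04 in the second and 0.04 in the block without symbols. In the same order the central 95% of differences ran from -0.47 to 0.59, from -0.52 to 0.80 and from -0.30 to 0.52, and 96.1%, 94.7% and 98.0% lay within 1.5-fold; this spread was not tested. Other members adjacent by identifier number resembled each other little. Their differences had a Pearson r of 0.12 over 1393 pairs, which share the same arrays. Without the stretch after TARS3 it was 0.094 over 1387 pairs. The pairs include the block without symbols, where the order of the numbers could not be set against the chromosome. The r against the mean difference of a member's annotated neighbours was 0.01 over 1057 members.

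Annotated genes around the proximal copies gave no member of the lists past 2-fold. Of the 18 imprinted genes listed, 9 were measured by a cluster with 1 symbol. UBE3A differed by -0.11, MAGEL2, a regulator of endosomal protein recycling, by -0.06, NDN, a growth suppressor, by -0.08, and MKRN3, an inhibitor of puberty onset, by 0.15. ATP10A, a phospholipid flippase gene, had the largest difference, 0.66, and their median was 0. Of the other genes of the region 8 of 9 were measured, with a median of 0.09 over 9 clusters. GABRG3, a GABA receptor subunit gene, differed by 0.52 in TC15000125.hg.1 and by 0.14 in TC15000126.hg.1. The small nucleolar RNA families had differences of opposite sign. All 19 SNORD116 clusters had positive differences (0.09 to 0.64, median 0.35), and 27 of 31 SNORD115 clusters negative ones (-0.78 to 0.31, median -0.31), beside a median of 0.02 over all clusters. In signal, 13 of the former and 5 of the latter reached the median of all clusters. The 20 clusters with 1 symbol of the GOLGA6 and GOLGA8 families had a median of 0.16 and the 4 of HERC2P one of 0.07. None of the SNORD115, SNORD116, golgin or HERC2P clusters passed 2-fold.

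By the same rule, chromosome 15 held the most repeated copies by number, 175 or 8.97% of its unnamed clusters. By share the identifiers starting TC6_ ranked above it, with 91 of 284 (32.0%). Chromosome 17 held 56 (3.60%) and chromosome 1 held 44 (1.09%). None of the copies of other identifiers that were counted was at least 2-fold different in either direction.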

How the data were processed

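The members, gene lists and comparisons were chosen with earlier results of these data known. Labelled cDNA from total RNA of OAW42-R and OAW42 was hybridized to Affymetrix HTA arrays, 1 array per line. The authors normalized the arrays by RMA (Affymetrix Expression Console) and the deposited values are log2 signals with 2 decimals; the annotation release and genome build are not given in the sources used here. RMA makes array distributions alike, so that a shift shared by most RNAs would not be seen. For arrays the number of arrays limits the precision.

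Names came from the platform annotation. Of 753 chromosome 15 clusters with 1 symbol, 750 matched RefSeq (GRCh38.p14), used for names, order and strand only, and 748 were placed on chromosome 15. Of the identifier numbers up to the highest, 38 were not analysed here. Differences are OAW42-R minus OAW42; a member was counted at 2-fold. Repeated copies shared both values in 5 or more members. Named members were all repeated pairs, 2-fold members whose brighter array reached the 75th percentile of all clusters, the 5 brightest with a tie, and those beside the threshold; others are stated as named after their values were seen. Alternatives were median centring, quantile normalization, loess, floors, other thresholds and other definitions of a copy. Steps were tested on simulated data. Python 3.11.15, pandas 2.3.3, numpy 2.4.6, statsmodels 0.14.6 and matplotlib 3.10.9 were used.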

Additional observations from a re-analysis of the deposited data

How the results depend on the processing

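Each line had 1 array, so none could be left out. No paired analysis was possible because a test needs replicates, which these lines lack. Centring, quantile normalization and loess left the 43 copies past 2-fold as they were, and none of the 20 repeated pairs or the 12 other members past 2-fold changed sign under these rescalings; the other named members were not rescaled one by one. In the order given, they moved the median difference over all clusters from 0.02 to 0, -0.015 and -0.0015. Such shifts are small beside a 2-fold difference, so differences of that size could hardly change sign. Quantile normalization and loess each took TC15001944.hg.1 just under the threshold (both 0.99). They moved the median of the other members from 0.04 to 0.01 and 0.019, and centring moved it to 0.02. Requiring the 75th percentile of signal left 12 copies higher, 3 other members higher and 0 lower. The 50th percentile left 43 copies higher, 7 other members higher and 1 lower. At 1.5-fold there were 65 copies higher and 46 and 18 other members higher and lower, and at 4-fold 5, 0 and 0. Counting equal pairs once reduced the copies past 2-fold to 5. With a pair defined by 10 or more members there were 115 repeated copies and 21 other members higher, and with 5 or more clusters of the whole array there were 433 repeated copies. Leaving out the stretch after TARS3, chosen after the data were seen, left 7 other members higher. Single arrays limit all of these values, and dim signals limit many. Whether clusters with equal values share probes was not tested.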
